A study of Homo sapiens with 12 samples.

Results

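The proteins of the cytosolic ribosome were followed at the mRNA level in MRC5 cells, a line of human embryonic lung fibroblasts. The genes were taken by symbol: names made of RPL or RPS and a number, with an A, X, L or L1 ending allowed, and RPLP0, RPLP1, RPLP2, RPSA and FAU. This gave 85 of the 57500 genes in the count table, namely 46 of the large subunit, 32 of the small subunit and 7 paralogues whose symbol extends that of another ribosomal protein gene by L or L1. No symbol occurred more than once. The first 2 classes are called here the 78 subunit genes.

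Bulk RNA sequencing covered 12 libraries in 4 groups of 3. Proliferating cells (Prol) received neither irradiation nor an inhibitor. The other groups were made senescent with 20 Gy of X-rays and collected 10 to 12 days later, either without an inhibitor (Sen(IR)), with 100 µM UK5099, an inhibitor of the mitochondrial pyruvate carrier (Sen(IR)+UK5099), or with CTPI2, an inhibitor of the mitochondrial citrate carrier SLC25A1 (Sen(IR)+CTPI2). The inhibitors were added 1 day after irradiation. The methods also say that they were kept in the medium for 12 days, which would run past the 10 to 12 days given for irradiated cells in general. The exact collection day of the treated cells is thus uncertain. The CTPI2 dose of the sequenced cells was not given in the sources used here. All groups are 1 cell line, and the labels do not say whether the 3 libraries of a group came from separate cultures. The paper's captions speak of 3 independent experiments for the CTPI2 data and 3 independent conditions for the UK5099 data. What was repeated in each is not described. The p-values measure the spread between these libraries, which may be technical.

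Ribosomal proteins are made in matched amounts and assembled with ribosomal RNA into a large and a small subunit. Their mRNAs are abundant in dividing cells and most begin with a cytosine followed by an unbroken run of pyrimidines, the 5′ terminal oligopyrimidine or TOP motif, through which the kinase complex mTORC1 and the RNA-binding protein LARP1 set their translation and stability. Ribosomal proteins that are not built into ribosomes are usually degraded, and RPL5 and RPL11 can bind the ubiquitin ligase MDM2.

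The letters around the start site are shown first because the pyrimidine run is the feature that most of these genes share and that was not used to choose them. Each line gives 30 bases of the sense strand from RefSeq on GRCh38.p14, 10 before the annotated start and 20 from it, with the run in capitals where it was found: a C within 3 bases of the start followed by at least 4 further C or T. The set holds genes from both ends of the ranking and from the comparisons of the inhibitors, and 3 parents with their paralogues. For RPL15, 1 of 3 listed starts is shown, and no run was found there.
RPSA, chr3:39406710-39406739, plus strand: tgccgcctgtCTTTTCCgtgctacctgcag
RPS7, chr2:3575250-3575279, plus strand: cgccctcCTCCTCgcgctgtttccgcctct
RPS6, chr9:19380217-19380246, minus strand: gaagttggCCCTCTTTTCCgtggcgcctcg
RPS19, chr19:41860245-41860274, plus strand: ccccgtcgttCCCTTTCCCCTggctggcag
RPS24, chr10:78033853-78033882, plus strand: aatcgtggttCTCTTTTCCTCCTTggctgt
RPLP0, chr12:120201092-120201121, minus strand: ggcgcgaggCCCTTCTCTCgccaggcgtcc
RPLP1, chr15:69452808-69452837, plus strand: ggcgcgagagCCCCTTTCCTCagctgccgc
RPL15, chr3:23916535-23916564, plus strand: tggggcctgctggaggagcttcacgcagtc
RPL22, chr1:6199576-6199605, minus strand: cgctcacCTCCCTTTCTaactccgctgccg
RPL22L1, chr3:170870176-170870205, minus strand: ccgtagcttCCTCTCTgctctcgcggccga
RPS27, chr1:153990752-153990781, plus strand: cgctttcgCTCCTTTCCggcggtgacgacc
RPS27L, chr15:63157458-63157487, minus strand: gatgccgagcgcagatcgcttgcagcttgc
RPL26, chr17:8383174-8383203, minus strand: gcgtgtagttCTCTTCCCTTTTgcggccat
RPL26L1, chr5:172958719-172958748, plus strand: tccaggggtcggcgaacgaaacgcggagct

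RefSeq promoters were on hand for 68 of the 85 genes, 84 promoters in all. A pyrimidine run stood at a start of 54 of these 68 genes (79.4%), against 16.0% of the 27305 genes in the same table. The share was 84.2% among 38 large subunit genes and 84% among 25 small subunit genes. Only 1 of 5 paralogues had it, RPL22L1. The letters CCGGAA, searched on both strands of the 300 bases from 250 before to 50 after the start, were in 53.6% of the members' promoters and 17.2% of all promoters. For GGGCGG the shares were 54.8% and 45.0%, for AAGATGG 11.9% and 5.84%, and for the TATA box letters TATAAA 8.33% and 11.5%. These are matches of letters and not tests of binding.

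The libraries held 20597736 to 28245693 counts. The mitochondrial share was largest with UK5099, at 3.81 to 4.23% of a library, and was 2.36 to 2.68% for Prol, 2.78 to 3.21% for Sen(IR) and 2.39 to 3.28% for CTPI2. The fibroblast label was checked on 10 markers, of which 9 exceeded 1 CPM (count per 1000000 counts, scaled by TMM) in every library. The tenth, S100A4, was at 0.869 CPM in 1 UK5099 library. Of 15 epithelial, endothelial, leukocyte, muscle and erythroid markers, 13 stayed below 1 CPM in every library, none was at 0 in all of them, and the highest single value was 1.28 CPM for EPCAM. The summed fibroblast markers were at 15257 to 16344 CPM with UK5099 against 25474 to 26618 CPM in Sen(IR), with COL1A1 and COL3A1 lower with UK5099. Counts are relative to the library, and in bulk RNA fewer cells of a kind and less RNA per cell cannot be told apart.

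Ribosomal protein mRNAs took up a smaller part of the libraries of senescent cells. The 78 subunit genes held 3.04, 3.16 and 3.45% of the counts in the Prol libraries and 2.23, 2.26 and 2.35% in the Sen(IR) libraries, a mean share 29.1% lower. The groups did not overlap. With UK5099 the share was 2.52, 2.74 and 2.48%, and with CTPI2 it was 2.46, 2.36 and 2.49%. These are shares of all counts, without scaling, and the mean shares with UK5099 and CTPI2 were 13.1% and 6.79% higher than in Sen(IR). Divided by the TMM factors, the scaling used for single genes below and an alternative chosen after seeing the data, the mean shares were 6.57% and 5.21% higher with the inhibitors, and 31.3% lower in Sen(IR) than in Prol. On that scale the third UK5099 library (2.35%) and the second CTPI2 library (2.36%) lay below the highest Sen(IR) library (2.38%), so both inhibitor groups overlapped Sen(IR).

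The large and the small subunit did not move by the same amount. The ratio of the summed counts of large to small subunit genes was 1.64, 1.66 and 1.64 in Prol and 1.84, 1.83 and 1.84 in Sen(IR). It was 1.89, 1.86 and 1.87 with UK5099 and 1.83, 1.85 and 1.80 with CTPI2. The ratio was higher in every irradiated library than in any Prol library. Summed shares carry no test here.

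**Figure D1:**
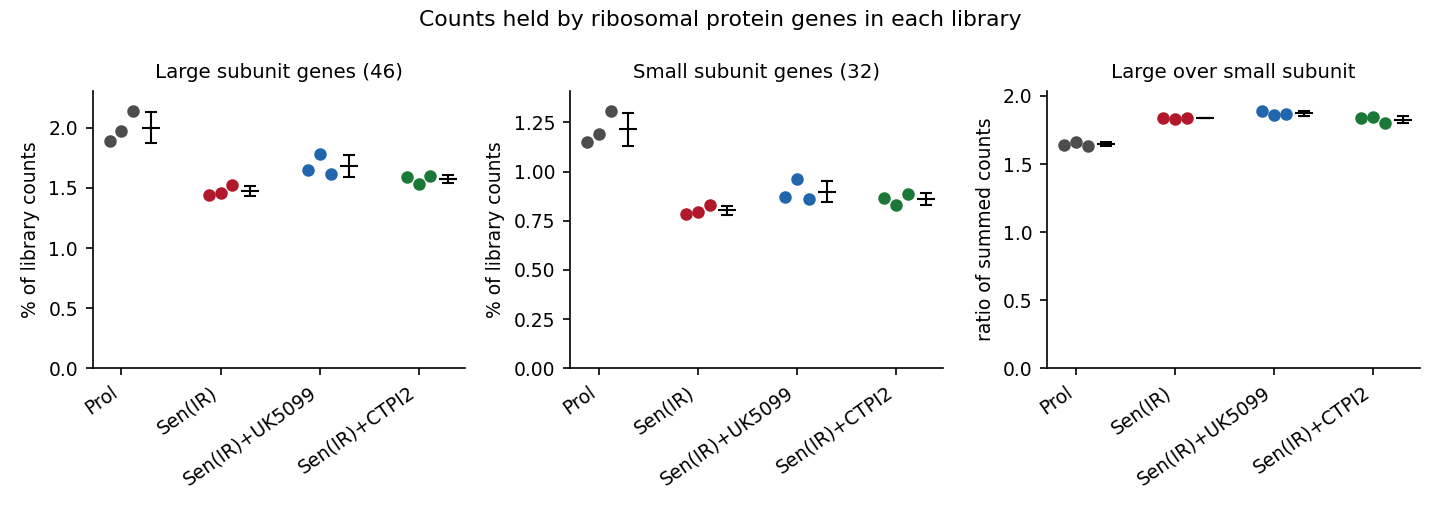
The percent of library counts (vertical axes, left and middle) held by the 46 large and 32 small subunit genes and the ratio of both sums (right), one point per library, with the group mean and SD (n = 3) beside the points. Both shares are highest in the 3 Prol libraries, while the ratio is about 1.64 to 1.66 there and 1.80 to 1.89 in the irradiated libraries.

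Within a group the subunit genes moved together from library to library. The third Prol library was the highest of its group for all 78 genes, and the second UK5099 library was the highest of its group for all 78. These were also the libraries with the most counts in their groups, at 28245693 and 25848472. Among the Sen(IR) libraries the third, with the fewest counts of its group (20597736), was highest for 68 genes, and among the CTPI2 libraries the third was highest for 50. The spread between replicates of a single gene thus held a shift that the set shared, and the members are not independent readings of a condition. Whether depth had a part in these shifts was not tested. Counts that changed without one of these libraries are given both ways.

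The first comparison asked how senescent cells differ from proliferating ones. Of the 78 subunit genes, 72 were lower in Sen(IR) and 0 were higher at an adjusted p under 0.05 (edgeR quasi-likelihood test, Benjamini-Hochberg adjustment over 16251 genes). Over all genes tested, 34.5% were lower and 34.1% higher by the same rule. The log2 fold change was negative for every one of the 78, from -1.05 to -0.08, with a median of -0.50 beside 0.01 for all genes. The median was -0.48 for the large subunit, where 44 of 46 were lower, and -0.60 for the small subunit, where 28 of 32 were. Past a log2 fold change of -0.5 there were 39 subunit genes, 19 large and 20 small, and 22.4% of all genes tested. Without the third Prol library 68 subunit genes were lower, and over the leave-out of each of the 12 libraries the count ran from 68 to 75. Of the 76 members called lower, paralogues included, 72 were called in every such fit, and RPL31, RPL36, RPL37A and RPLP2 were not. With upper-quartile scaling, which moved the median of all genes to 0.13, the count was 63 and the median of the subunit genes -0.38.

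**Figure D2:**
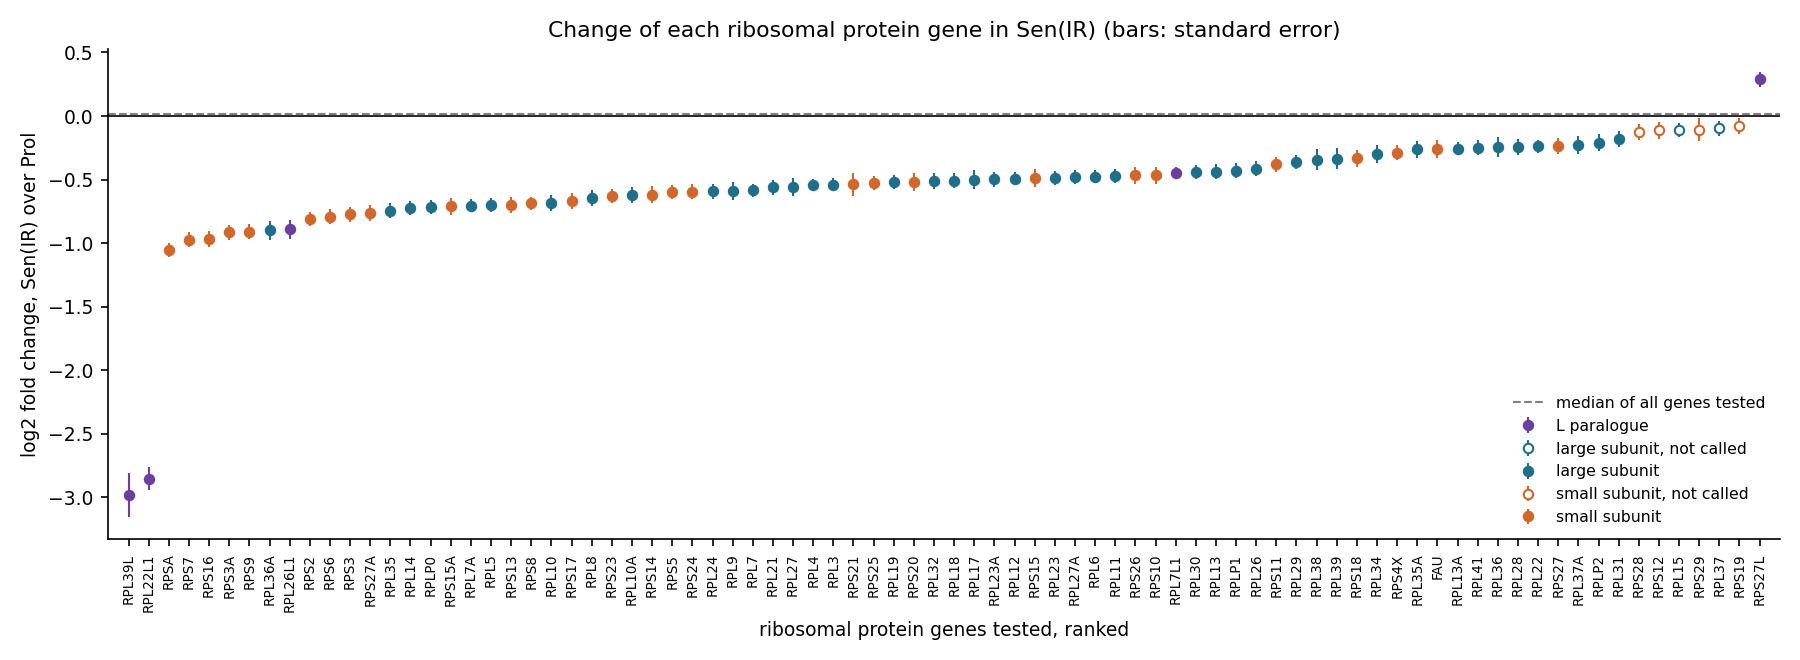
The log2 fold change of Sen(IR) over Prol (vertical axis) with its standard error for the members tested and shown, ranked from the lowest to the highest; filled points passed the test and open points did not. Large and small subunit genes run without a gap from -1.05 to -0.08, while RPL39L and RPL22L1 lie near -3 and RPS27L alone is above 0.

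Among the 78 subunit genes, those with the lowest values were of the small subunit. RPSA, a protein of the small subunit that also carries the name laminin receptor, stood at 871, 899 and 1000.1 CPM in Prol and at 449, 435 and 449 CPM in Sen(IR). Its level fell by 51.9% (log2 fold change -1.05 ± 0.06 SE, adjusted p = 1.5e-13, edgeR). RPS7, an early-assembling protein that can also bind MDM2, went from 451, 458 and 495 CPM to 236, 231 and 249 CPM, with a log2 fold change of -0.97. RPS16 was at 205, 203 and 235 CPM in Prol and 106, 110.1 and 113 CPM in Sen(IR), also at -0.97. In each of these 3 genes the lowest Prol library was far above the highest Sen(IR) library. RPS3A followed at -0.92 and RPS9, which sits at the mRNA entry of the small subunit, at -0.91. RPS6, the substrate of the S6 kinases that gave them their name, went from 829, 851 and 936 CPM to 490.4, 494 and 526 CPM, and fell by 42.2% (adjusted p = 3.85e-11, edgeR).

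The genes that encode a ribosomal protein fused to ubiquitin or a ubiquitin-like domain did not share a size of change. RPS27A, fused to ubiquitin, was at 450.2, 457 and 511 CPM in Prol and 260.0, 288 and 287 CPM in Sen(IR), with a log2 fold change of -0.76 ± 0.06 (SE). FAU, whose product is cleaved into a ubiquitin-like part and a small subunit protein, was at 66.9, 67.7 and 78.1 CPM in Prol and 56.9, 58.6 and 62.5 CPM in Sen(IR), at -0.26 ± 0.07 (adjusted p = 0.00355, edgeR). The call for FAU was lost with upper-quartile scaling (log2 fold change -0.14). RPS14 fell by 34.9%, RPS26 by 27.6%, and RPS19 had a log2 fold change of -0.08 that did not pass the test. RPS25, a protein used by some internal ribosome entry sites, fell by 30.6%, and RPS4X, encoded on the X chromosome, by 18.1%.

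The large subunit genes had a narrower range. RPL5 and RPL11, which form with 5S ribosomal RNA the particle that can bind MDM2, were both lower. RPL5 stood at 612, 619 and 681 CPM in Prol and 375, 387 and 415 CPM in Sen(IR), with a log2 fold change of -0.70 ± 0.06 (SE). RPL11 stood at 425, 448 and 493 CPM against 320.1, 328 and 335 CPM, at -0.48 ± 0.06. The 3 proteins of the stalk, the flexible arm that recruits elongation factors, were lower by unequal amounts. RPLP0, the base of the stalk, went from 1108, 1181 and 1275 CPM to 714, 719 and 737 CPM, at -0.72 ± 0.05 (SE). RPLP1 was at 326, 342 and 392 CPM in Prol and 259.8, 257 and 271 CPM in Sen(IR), at -0.43 ± 0.06. RPLP2, its partner, was at 170.3, 179 and 199 CPM against 159, 151 and 163 CPM, at -0.21 ± 0.07 (adjusted p = 0.00724, edgeR), and its call was lost with upper-quartile scaling. The other large subunit genes followed by rule were lower too: RPL10, a late-joining protein, at -0.68, RPL10A at -0.62, RPL3, which lies near the catalytic center, at -0.54, RPL38 at -0.34 and RPL13A at -0.26. RPL36A had the lowest value of the large subunit at -0.90. Of the exon bases of RPL10, 53.4% are shared with other annotated genes, and of those of RPL36A 22.4%. The strand setting of the counting was not given, so these 2 values may hold reads of their neighbors or lack reads of their own.

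The 6 subunit genes that did not pass the test were 4 of the small and 2 of the large subunit. RPS19 was at 245, 265 and 298 CPM in Prol and 251, 253 and 261 CPM in Sen(IR), and the Sen(IR) values lay inside the Prol range. RPS12 was at 266, 289.8 and 319 CPM against 258, 271 and 281 CPM, with a 95% interval of the log2 fold change from -0.24 to 0.02. RPL15 was at 638, 687 and 737 CPM against 626, 629 and 655 CPM, from -0.21 to -0.01 (adjusted p = 0.0664, edgeR). RPL37, RPS28 and RPS29 had log2 fold changes of -0.10, -0.12 and -0.11. The lower ends of the 6 intervals ran down to -0.29, so these libraries do not show that the 6 were unchanged. With upper-quartile scaling the values of RPL15, RPL37, RPS12, RPS19 and RPS29 were slightly above 0. Without the first Prol library RPL15 (-0.16), RPS12 (-0.17) and RPS19 (-0.14) were called lower, as was RPL15 without the third CTPI2 library (-0.12) and RPS28 without the third Sen(IR) library (-0.16).

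The size of the change went with the length of the coding sequence. Over the 78 subunit genes Spearman's rho between coding length and the log2 fold change in Sen(IR) was -0.53 and Pearson's r -0.49, as a description across genes of the same libraries. Over the 5799 other genes in the same range of coding lengths rho was -0.02. The 9 subunit genes with at most 300 coding bases had a median log2 fold change of -0.23, the 28 up to 450 bases -0.47, the 19 up to 600 bases -0.51 and the 22 longer ones -0.66. The order was the same within the small subunit (-0.18, -0.52, -0.66 and -0.78) and within the large subunit (-0.25, -0.42, -0.50 and -0.60). RPL15, with 612 coding bases, and RPS4X, with 789, were among the longer genes with a small change. In the comparisons of the inhibitors with Sen(IR) rho was 0.08 for UK5099 and 0.19 for CTPI2. Between the mean Prol CPM and the log2 fold change in Sen(IR) rho was -0.38. Whether gene level, transcript length or the share of short fragments in the libraries goes along with coding length was not tested. Nor was their part in the relation.

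**Figure D3:**
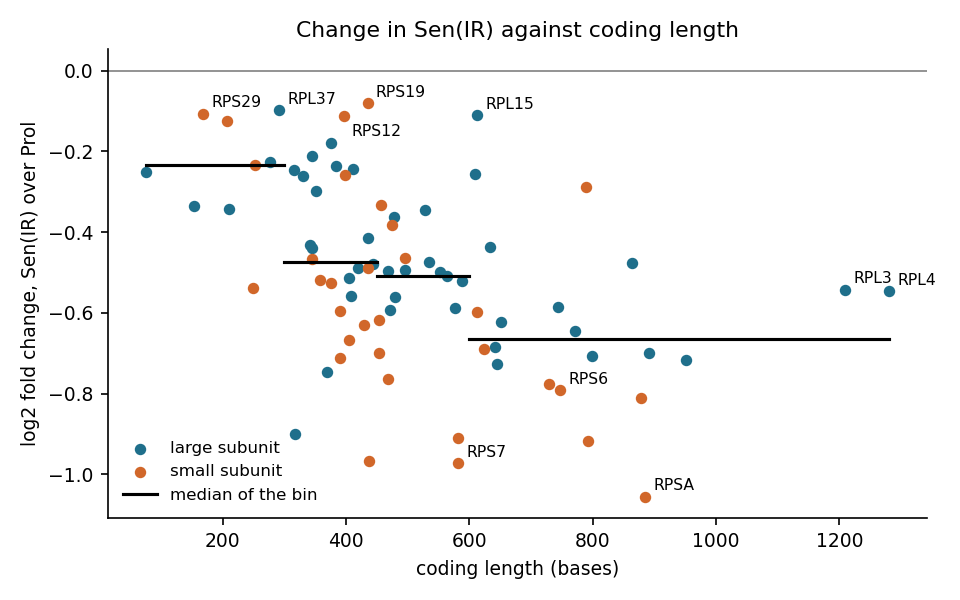
The log2 fold change of Sen(IR) over Prol (vertical axis) against coding length in bases for the 78 subunit genes, with the median of each of 4 length bins as a black line. The medians step down from -0.23 to -0.66, and RPL15 lies above the genes of like length.

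Subunit genes with and without the pyrimidine run at an annotated start had like medians. The starts used in these cells were not measured, so a gene may be in the wrong class. For RPL15 the printed window ends at 23916564, before its GENCODE v44 start of 23916591. Whether the change depends on the motif was not tested. The 53 with the run had a median log2 fold change of -0.51 in Sen(IR) and the 10 without it -0.48. RPSA and RPS19, at opposite ends of the ranking, both carry the run in the letters printed above.

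The paralogues are given beside their parents, and the differences between them were not tested. RPL22L1, whose protein is 73.8% identical to RPL22, was at 149, 130.0 and 169 CPM in Prol and at 19.9, 19.8 and 22.3 CPM in Sen(IR), and fell by 86.2% (log2 fold change -2.85 ± 0.09 SE, adjusted p = 2.11e-17, edgeR). RPL22 itself was at 263, 269.7 and 289 CPM against 232, 234 and 232 CPM, at -0.24. RPL39L, with 92.2% identity to RPL39 and best known from the male germ line, was at 12.5, 12.3 and 14.5 CPM in Prol and 1.82, 1.33 and 1.81 CPM in Sen(IR), at -2.98 ± 0.17 (SE). RPL39 was at 158, 157 and 177 CPM against 115, 134 and 141 CPM, at -0.34. The paralogues were at 0.138 and 0.127 times their Prol level, and the parents at 0.848 and 0.792 times.

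RPL26L1, 98.6% identical to RPL26 with 2 of 145 residues differing, was at 33.8, 34.3 and 38.9 CPM in Prol and 19.9, 19.0 and 18.8 CPM in Sen(IR), at -0.89 ± 0.07 (SE). RPL26, the parent gene, was at -0.42. RPL7L1, only 43.7% identical to RPL7 and linked to ribosome assembly rather than to the finished ribosome, was at 266, 264 and 259 CPM against 193, 191 and 196 CPM, at -0.45, while RPL7 was at -0.59. RPS27L, 96.4% identical to RPS27 with 3 of 84 residues differing, was the 1 member that was higher: 100.1, 100.1 and 113 CPM in Prol and 124, 128 and 132 CPM in Sen(IR), at 0.29 ± 0.06 (adjusted p = 0.000164, edgeR). RPS27 went the other way, from 197, 201 and 226 CPM to 172, 171 and 187 CPM, at -0.23, a call lost with upper-quartile scaling. RPL3L, a muscle gene, had 0 to 6 counts in a library and RPL10L, a germ-line gene, had 0 counts in all 12, so these 2 were not tested. A count of 0 allows up to 3 counts in a library, and the intervals and floors cover counting error only.

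Per base of exon, RPL22L1 was at 128.8, 109.7 and 132 percent of RPL22 in the Prol libraries and at 19.5, 19.2 and 21.9 percent in Sen(IR). With the length of 1 reference transcript in place of all annotated exons the Prol mean was 58.9% rather than 124%, so the ratio depends on the lengths but its drop does not. RPL39L was at 16.4% of RPL39 per length in Prol and 2.65% in Sen(IR), and RPL26L1 at 36.0% of RPL26 and 25.9%. RPS27L was at 5.86 ± 0.06% of RPS27 in Prol and 8.43 ± 0.23% in Sen(IR) (SD, n = 3 each), with no test of the ratio. RPL7L1 was at 10.8 ± 0.87% of RPL7 in Prol and 11.9 ± 0.23% in Sen(IR). Per the methods only unique reads were counted. Rows named as pseudogenes number 22 for RPL22, 16 for RPL39, 14 for RPL26 and 15 for RPS27, and 0 for their paralogues. How many reads each gene lost to such copies was not tested, so the percentages may be too high.

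**Figure D4:**
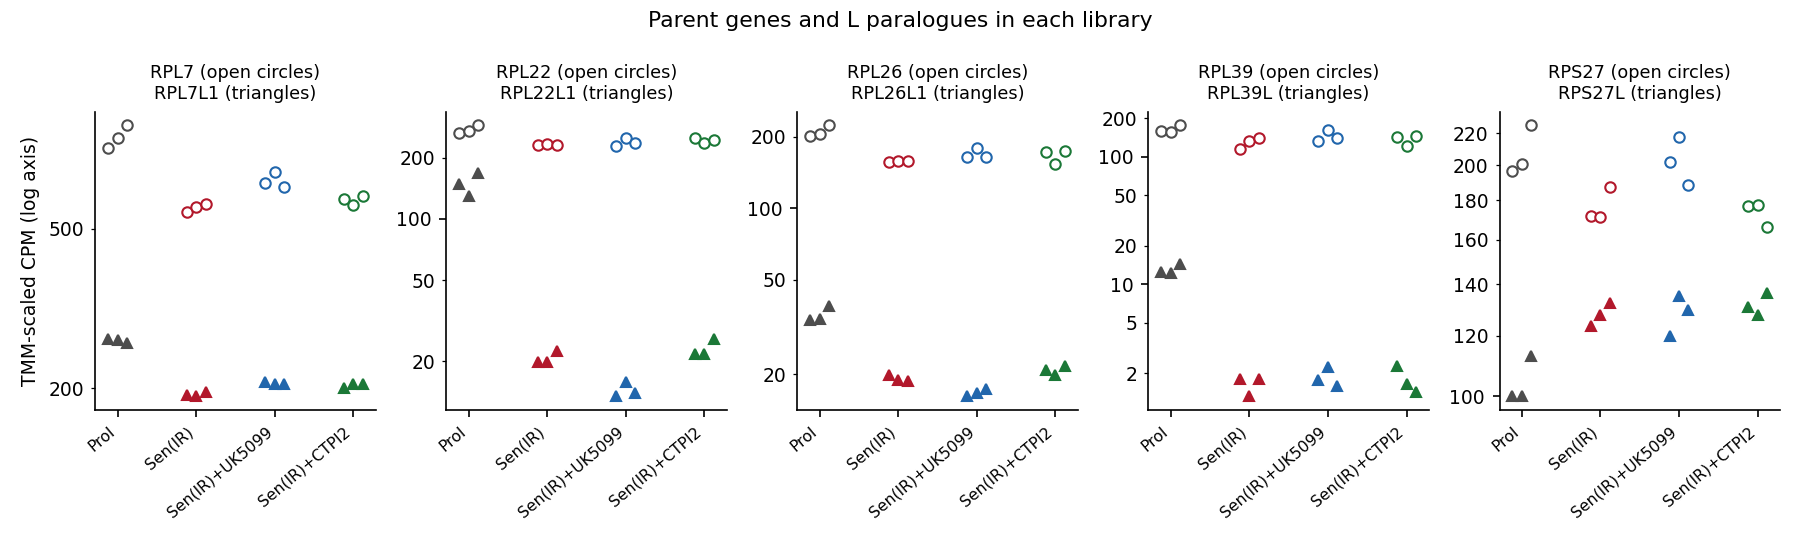
TMM-scaled CPM (log axis) of 5 parent genes (open circles) and their paralogues (triangles) in the 12 libraries by group. RPL22L1 and RPL39L drop by far more than their parents in Sen(IR), RPS27L lies higher in Sen(IR) than in Prol, and RPL22L1 and RPL26L1 are lowest with UK5099.

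Other genes of the pathway were counted by list. Among 20 genes of elongation and other TOP mRNAs, 17 were lower in Sen(IR) and 0 were higher, with a median log2 fold change of -0.40. Of all genes tested 34.5% were lower and 34.1% higher, to be read beside this and the lists that follow. HNRNPA1 was at -1.88, the TOP host gene SNHG1 at -1.78 and NPM1 at -1.20, while EEF1A1 was at -0.10 and EEF2 at 0.02, which did not pass. Of the 3 ribosomal protein genes outside the symbol rule, RACK1 (-0.57) and RPL36AL (-0.40) were lower. Of 10 genes listed as chaperones of ribosomal proteins, 7 were lower and 0 higher, GRWD1 at -1.18 and HEATR3, the carrier of RPL5, at -1.13. NPM1, NAP1L1 and BTF3 are among the 7 lower but are not dedicated to a single ribosomal protein. They also stand in the list of the TOP mRNAs, so the counts of the 2 lists overlap. Among 23 genes of mTORC1 and TOP control, 9 were higher and 12 lower. SESN3, SESN1 and SESN2, which restrain mTORC1, were at 2.40, 1.21 and 0.73, and EIF4EBP1 at -1.65, MYC at -0.84 and LARP1 at -0.25. Of the MDM2 list, MDM2 itself (1.22) and the cell cycle inhibitor CDKN1A (1.74) were higher, and MDM4 (-0.72), a relative of MDM2, was lower.

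The second comparison asked what blocking the pyruvate carrier changed in senescent cells. With UK5099, 21 of the 78 subunit genes were higher than in Sen(IR) and 2 were lower, and 55 did not pass. Over all genes, 21.9% were higher and 23.5% lower, so the share called higher, 21 of 78, was near the background. None of the 78 passed a log2 fold change of 0.5 in either direction. The log2 fold changes were positive for 59 of 78, with a median of 0.08 beside 0.01 for all genes. Of the large subunit 13 were higher and 1 lower, and of the small subunit 8 and 1. The count of higher genes rested on single libraries: it was 4 without the second UK5099 library, 7 without the first Sen(IR) library and 11 without the second Sen(IR) library. The median without the second UK5099 library was 0.03. The mitochondrial share and the fibroblast markers given above also differed in the UK5099 libraries, and their part in these counts was not tested.

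RPLP1, RPL15, RPL28 and RPL7 were called higher whichever of the 12 libraries was left out. RPLP1, the stalk protein, was at 324, 343 and 310.2 CPM with UK5099 and 259.8, 257 and 271 CPM in Sen(IR), and rose by 24.1% (log2 fold change 0.31 ± 0.06 SE, adjusted p = 0.000172, edgeR). RPL15 was at 759.9, 809 and 747 CPM against 626, 629 and 655 CPM, at 0.28 ± 0.05. RPL28 was at 257, 279 and 243 CPM against 211, 209 and 226 CPM, at 0.27 ± 0.06. RPL7 was at 649, 692 and 633 CPM against 549.6, 565 and 576 CPM, at 0.22 ± 0.05. In all 4 the 3 UK5099 libraries lay above the 3 Sen(IR) libraries. RPL10 (0.21), RPS27 (0.20), RPL37 (0.19), RPS4X (0.19), RPS6 (0.18), RPS25 (0.16), RPL10A (0.16) and RPLP0 (0.15) were called higher too but lost their call in at least 1 of the fits that left out a library. RPL10A also lost it with DESeq2 and with RLE scaling.

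The subunit genes called lower with UK5099 were RPS24 and RPL23A. RPS24, a small subunit protein mutated in some inherited anemias, was at 309, 354 and 304 CPM with UK5099 and at 390.3, 398 and 408 CPM in Sen(IR), and fell by 19.2% (adjusted p = 0.000156, edgeR). Its call held in every fit that left out a library. RPL23A, which lies at the exit of the peptide tunnel, was at 292, 337 and 288 CPM against 334, 347 and 360.0 CPM, at -0.18 ± 0.06 (SE). The groups overlapped for RPL23A, its call was lost in some of the fits without 1 library, and counts on rows named as its pseudogenes came to 13.8% of its own. RPS21 had a log2 fold change of -0.17 that did not pass (adjusted p = 0.145, edgeR). It was called lower without the first Sen(IR) library (-0.27) and without the second UK5099 library (-0.25), and its value ran from -0.27 to -0.10 over the fits without 1 library.

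RPL5, RPL11, RPLP2 and RPSA showed no call with UK5099. RPL5 was at 412, 462 and 411 CPM, with a log2 fold change of 0.13 (adjusted p = 0.0751, edgeR), and was called higher with upper-quartile scaling (0.15), with only the compared groups (0.12) and without the third Sen(IR) library (0.17). RPL11 was at 312, 338 and 304 CPM with one of -0.04. RPLP2, at 149, 175 and 145 CPM, spanned its Sen(IR) values of 159, 151 and 163 CPM. The difference between the stalk partners RPLP1 and RPLP2 was not tested.

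Among the paralogues, RPL22L1 was lower with UK5099 than in Sen(IR), at 13.5, 15.9 and 14.0 CPM against 19.9, 19.8 and 22.3 CPM. It fell by 30.0% (log2 fold change -0.51 ± 0.10 SE, adjusted p = 0.000274, edgeR), in the same direction as in Sen(IR) against Prol, and was called lower without each library in turn. RPL22 was at 228, 251 and 235 CPM, around its Sen(IR) values. RPL26L1 was at 16.2, 16.7 and 17.3 CPM against 19.9, 19.0 and 18.8 CPM, at -0.20 ± 0.08 (adjusted p = 0.0413, edgeR), and lost its call with DESeq2, with upper-quartile scaling, without the low-count filter and in each fit without 1 of the 6 compared libraries. RPS27L was at 119.9, 135 and 129.7 CPM, inside and beside the Sen(IR) range, and RPL7L1 (0.09) and RPL39L (0.17) did not pass.

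The other lists are read beside 21.9% of all genes higher with UK5099 and 23.5% lower. Of the 20 elongation and TOP genes 6 were higher, among them TPT1 (0.40), EEF1A1 (0.35) and the TOP host gene GAS5 (0.32), and 5 were lower, among them EIF3K (-0.47), HNRNPA1 (-0.36) and EEF1B2 (-0.32). Of the mTORC1 and TOP control genes 6 were higher and 4 lower: SESN3 was at 1.48 and TSC1 at 0.67, DDIT4 at -1.25 and EIF4EBP1 at -0.83. Of the genes listed as chaperones 0 were higher and 2 lower, BCCIP (-0.31) and GRWD1 (-0.25). MDM2 was higher, at 0.24, and none of the 3 ribosomal proteins outside the rule passed.

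**Figure D5:**
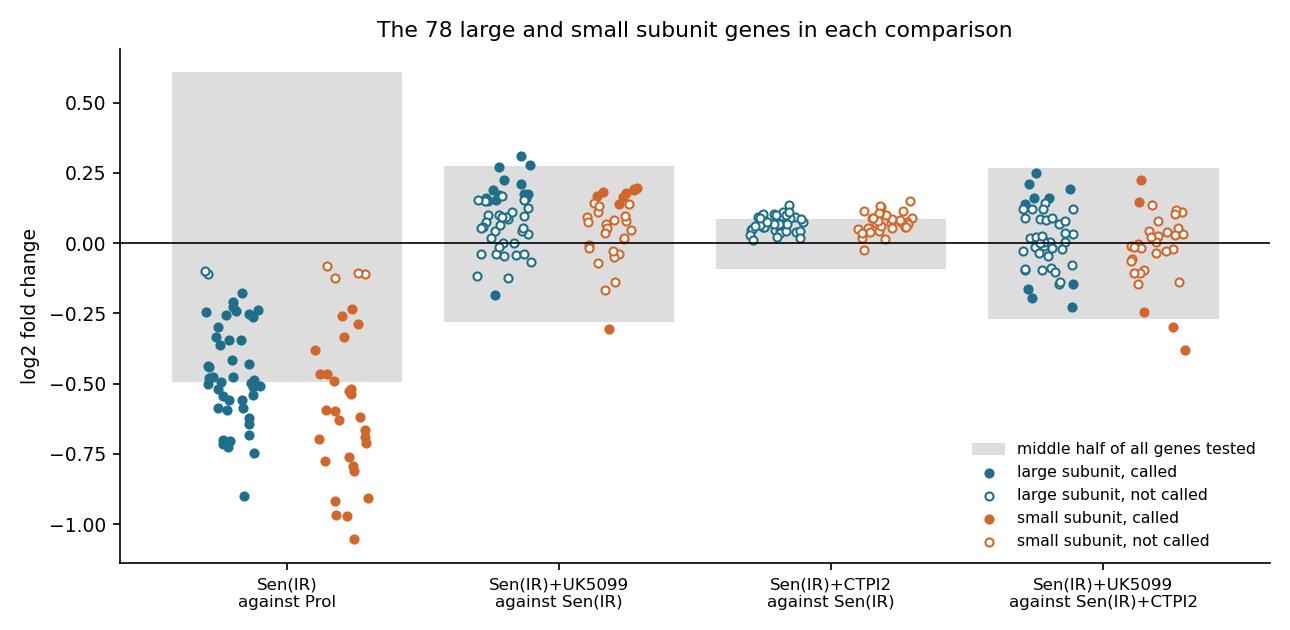
Log2 fold changes (vertical axis) of the 46 large and 32 small subunit genes in the 4 comparisons; filled points passed the test and the grey bands run from the lower to the upper quartile of all genes tested. The genes lie below 0 in Sen(IR) against Prol, spread on both sides with UK5099, and lie in a narrow band above 0 with CTPI2, where none passed.

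The third comparison asked the same of the citrate carrier inhibitor. With CTPI2, 0 of the 78 subunit genes and 0 of the 5 paralogues tested passed, by edgeR or by DESeq2. At an unadjusted p under 0.05 there were 3 subunit genes, all higher, and the smallest adjusted p was 0.587 (edgeR). Over all genes, 0.0861% were higher and 0.4% lower. The log2 fold change was nonetheless positive for 77 of 78, with a median of 0.07 (0.003 for all genes, of which 51.0% were positive). The SD of the set's median between single libraries, pooled over all 4 groups, was also 0.07, close to the median with UK5099 (0.08). It is not the error of a difference between means of 3 libraries, and the groups spread unequally. Shares divided by the TMM factors ran from 3.15 to 3.62% in Prol and 2.35 to 2.63% with UK5099. They ran from 2.25 to 2.38% in Sen(IR) and 2.36 to 2.48% with CTPI2. For 20 of the 78 all 3 CTPI2 libraries were above all 3 Sen(IR) libraries, which held for 6.79% of all genes. Since the members shift together within a library, these counts are not 78 separate readings. The 77 positive values stayed 77 under each other scaling of the libraries.

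The highest values with CTPI2 were those of RPL22L1 (0.16), RPS3A (0.15), RPL17 (0.14), RPS21 (0.13) and RPS14 (0.13), and none passed. RPS3A was at 468, 431 and 531 CPM with CTPI2 and 428, 427 and 435 CPM in Sen(IR), with a 95% interval of the log2 fold change from 0.03 to 0.27. RPL17 shares 35.5% of its exon bases with other annotated genes. RPSA was at 475, 454 and 488 CPM, above its Sen(IR) values of 449, 435 and 449 CPM, at 0.09. RPLP0 was at 761, 749 and 775 CPM at 0.07, and RPLP1 at 279.7, 274 and 268 CPM at 0.06. RPS27 was the 1 subunit gene below 0, at 177, 178 and 166 CPM and a log2 fold change of -0.03, with a sign that turned when the third Sen(IR) or the third CTPI2 library was left out. None of the 5 pathway lists had a called gene with CTPI2.

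Both inhibitor groups were compared with the same 3 Sen(IR) libraries, so their values share any deviation of those libraries. The test of UK5099 directly against CTPI2 takes no level from them, though they enter its estimate of the spread, and the doses are not known to be matched. In it 8 subunit genes were higher and 7 lower with UK5099, beside 21.1% and 23.4% of all genes tested, and the median was 0.003 (0.01 for all genes). RPLP1 (0.25), RPS27 (0.22) and RPL15 (0.21) were higher in every fit that left out a library, while RPL28 (0.19), RPL10 (0.16), RPL7 (0.16), RPS4X (0.15) and RPL23 (0.14) were not in at least 1. RPS24 (-0.38), RPS7 (-0.25) and RPL23A (-0.23) were lower in every such fit, while RPS21 (-0.30), RPL35A (-0.20) and RPL29 (-0.14) were not in at least 1. Without the second UK5099 library 3 were higher and 13 lower.

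RPS24 gave the largest subunit difference between the inhibitors, at 309, 354 and 304 CPM with UK5099 and 419, 401 and 439 CPM with CTPI2 (adjusted p = 1.36e-05, edgeR). RPS7 was at 206, 232 and 213 CPM with UK5099 and 261, 243 and 268 CPM with CTPI2, and the groups did not overlap. Of the paralogues, RPL22L1 was lower with UK5099 by a log2 fold change of -0.67 ± 0.10 (SE) and RPL26L1 by -0.31 ± 0.08, both in every fit without 1 library. For RPL22L1 the CTPI2 libraries were at 21.8, 21.7 and 25.7 CPM, close to the Sen(IR) values, and for RPL26L1 at 20.9, 19.9 and 21.6 CPM.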

How the data were processed

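Per the labels and methods, the authors used paired-end sequencing, Trimmomatic 0.36 for trimming, STAR 2.5.2b for alignment against GRCh38 and featureCounts of Subread 1.5.2 for counting by gene. The deposited values are raw counts per gene. Only unique reads within exons were counted, so reads matching several places are missing from the levels and shares of the members. The strand setting of the counting was not given in the sources used here. All 12 sample columns matched a label, and 0 columns belonged to other samples.

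Counts were fitted in R 4.3.3 with edgeR 4.0.16 (filterByExpr, TMM, glmQLFit and glmQLFTest on all 12 libraries in 4 groups, no covariate). A gene was called at a Benjamini-Hochberg adjusted p under 0.05 over 16251 genes at any fold, and counts past an absolute log2 fold change of 0.5 were given beside. TMM factors were 0.953 to 1.05, and the common dispersion of 0.00374 is a coefficient of variation of 6.12% between replicates. Library depth of 20597736 to 28245693 counts limits the precision of genes with few counts. Chi-square per gene between libraries of a group was 2.28 to 13.6, above sampling noise, so none was counted as a duplicate. CPM values are TMM-scaled. SE is the absolute log2 fold change over the square root of F. Lengths and overlaps came from GENCODE v44, and start sites from RefSeq (GRCh38.p14). Protein identity was computed from the coding sequences of the annotated transcripts.

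Rows named as pseudogenes of members (1154, of which 528 had a count) were left out, except in 1 alternative. The named genes are the 5 highest and 5 lowest members of each comparison and a list written by role. FAU, RPS27A, RPL5 and the like come from that list. RPS3A, RPS9, RPL36A, RPS12 and RPS28 in the first comparison, and members named as called genes elsewhere, were named after their values were seen. Members, lists and roles were chosen with earlier results of these data known. Alternatives were DESeq2 1.42.0, RLE and upper-quartile scaling, TMM factors without ribosomal protein genes, no filter, only the compared groups, a replicate block, other call limits, pseudogene rows summed, and each library left out. Shares divided by the TMM factors were added after seeing the data. Some genes are counted but not reported here by name.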

Additional observations from a re-analysis of the deposited data

How the results depend on the processing

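The 72 subunit genes lower in Sen(IR) stayed at 63 to 72 under the other tests, scalings and filters, and 39 were past the log2 fold limit of 0.5 with the adjusted or the unadjusted p. Upper-quartile scaling moved their median to -0.38 and turned RPL15 (0.0099), RPL37 (0.023), RPS12 (0.0096), RPS19 (0.040) and RPS29 (0.015) above 0. Over the fits without 1 library RPS29 ran from -0.20 to 0.00277, its highest without the third Prol library. With the limit of 0.5 no subunit gene was called for UK5099 against Sen(IR) or against CTPI2 (0 higher and 0 lower each). With only the compared groups 5 rather than 2 were lower with UK5099, and upper-quartile scaling gave 13 rather than 8 higher against CTPI2. Leaving out each library gave 4 to 24 higher and 1 to 6 lower for UK5099 against Sen(IR), with 1 lower without the third Sen(IR), the first UK5099 or the third UK5099 library and 6 without the second UK5099 library. Against CTPI2 it gave 3 to 9 higher and 3 to 13 lower. There, higher genes were 5 without the first and 4 without the second CTPI2 library, and lower genes 4 without the first UK5099, 3 without the third UK5099 and 4 without the first CTPI2 library. RPS27 with CTPI2 ran from -0.048 to 0.017 over such fits, above 0 without the third Sen(IR) or the third CTPI2 library. With the length of 1 transcript the Prol ratios of paralogue to parent were 8.56% for RPL7L1, 58.9% for RPL22L1, 12.4% for RPL26L1, 4.27% for RPL39L and 2.90% for RPS27L. The cause of these moves was not tested.

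Same-numbered libraries of different groups deviated with correlations of -0.05 to 0.04, and differently numbered ones with -0.06 to 0.10. No shared effect of the number was seen, but such correlations cannot show whether the samples were made as matched sets. With the replicate block 72 subunit genes were lower in Sen(IR), 23 were higher and 3 lower with UK5099, 0 were called with CTPI2, and 8 were higher and 7 lower between the inhibitors. Low counts limit RPL3L, RPL10L and, in irradiated cells, RPL39L.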
